A study of Mus musculus with 80 samples.

Results

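Expression of 45 homeobox transcription factor genes that are known to mark regional or cell type identity in the brain was examined in 5 brain regions (hypothalamus, amygdala, hippocampus, cortex and cerebellum) of virgin and primiparous female mice. The 45 genes were chosen by name and make up 45 of the 27179 genes in the count table. They fall into 8 classes: 7 LIM genes, 14 NK-like genes, 4 paired-like genes, 2 sine oculis class genes, 5 TALE genes, 5 POU genes, 3 CUT genes and 5 zinc finger genes. The females were C57BL/6 by the labels and C57BL/6J by the study's methods. Primiparous females were each housed with a male from 8 weeks of age for 2 weeks and raised a litter, and by the labels their tissue was collected 3 weeks after weaning. The study's methods give a longer interval. Virgin females were age-matched and were not paired with a male. Each state had 8 animals, each region came from the same 16 animals, and the tables held 77 of the 80 labelled libraries: 8 virgin and 8 primiparous libraries for the hypothalamus and for the cortex, and 7 virgin and 8 primiparous libraries for each of the other 3 regions.

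A homeobox encodes the homeodomain, a DNA-binding domain of helices that reads short sites rich in A and T. In the embryo, homeobox genes are switched on in bands and patches that divide the neural tube into forebrain, midbrain and hindbrain territories, and many stay on in the adult neurons that descend from a territory. The classes differ in what accompanies the homeodomain, such as the LIM domains that bind cofactors, the POU-specific domain, the CUT repeats, the sine oculis domain or a set of zinc fingers, and TALE proteins act as partners of other homeodomain proteins.

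The libraries held between 7959192 and 37871854 assigned reads, with a median of 17623886. Levels are given as CPM, the reads of a gene scaled to 1000000 assigned reads in the library, as the mean ± SD over the libraries of a region (n = 16 for the hypothalamus and the cortex, n = 15 for the other regions) unless stated otherwise. The level of a gene in bulk tissue does not tell fewer expressing cells apart from less RNA per cell. Of the 45 genes, 40 reached 5 CPM in 8 or more libraries and were tested, while En1, Lhx8, Hmx2, Rax and Pou3f4 did not. The cerebellar marker genes fitted the labels, since 10 of 10 of them were higher in the cerebellum than in each other region. Some libraries stood apart in ways that touch these genes. The hippocampus library of primiparous animal 413 had a summed cerebellar marker level of 1907 CPM against a median of 832 CPM over the hippocampus libraries. The cortex libraries differed in the summed level of 10 olfactory bulb marker genes, from 17.4 to 509 CPM, and 5 of the 9 of these genes that were tested were called for the cortex. Values without these libraries are given below where a call between a gene's highest and next region changed, and by example for other comparisons.

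**Figure D1:**
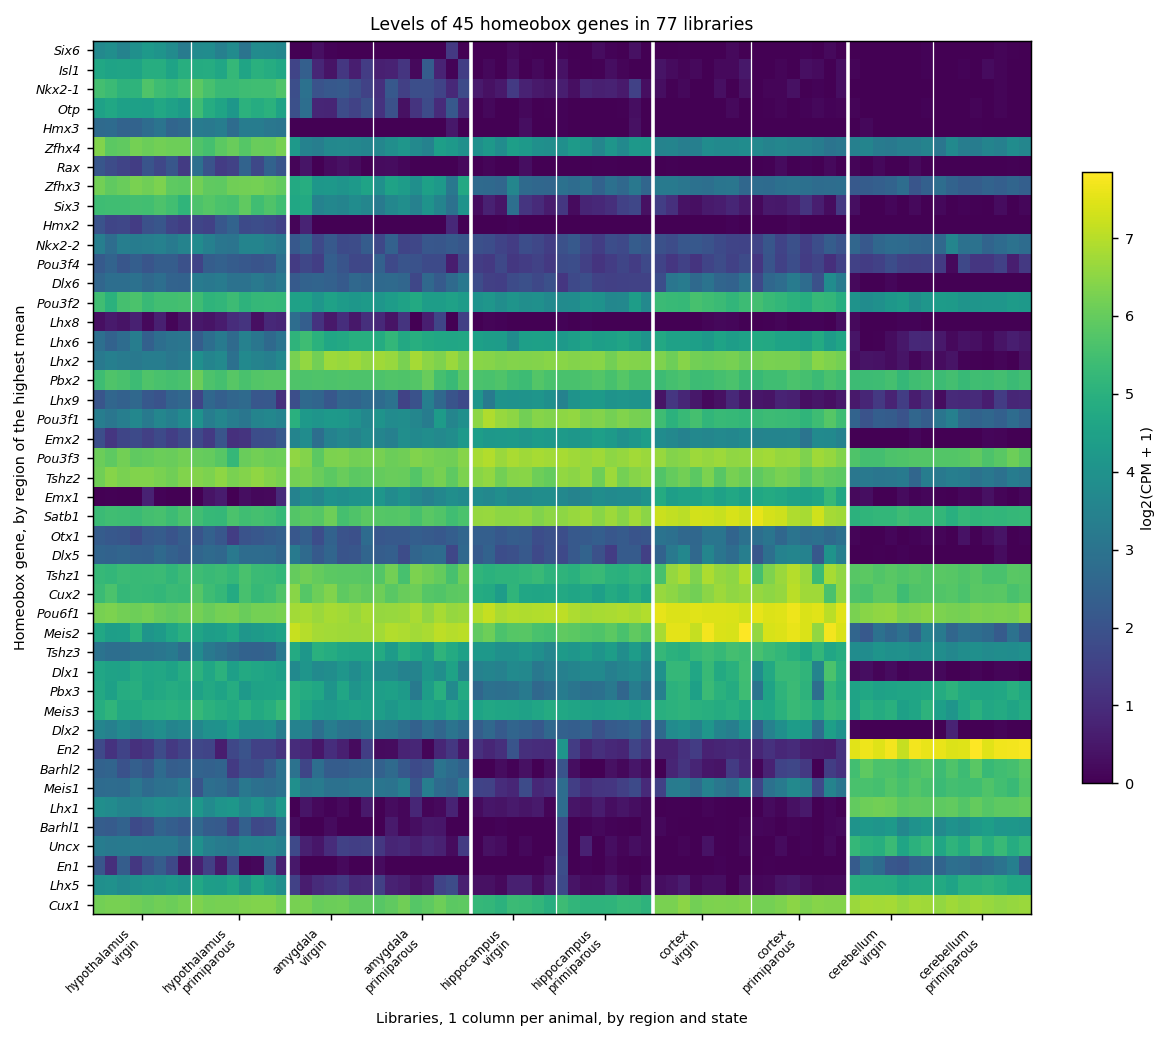
Heat map of the 45 homeobox genes (rows, ordered by the region of their highest mean) in the 77 libraries (columns, by region and state), coloured by log2(CPM + 1). Blocks of high level line up with the region labels in the hypothalamus and the cerebellum, and virgin and primiparous libraries of a region look alike.

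Between pairs of regions, most of the 40 genes differed in level at an adjusted p under 0.05, beside a large share of all genes. The counts were 39 between hypothalamus and cerebellum (81.1% of all genes tested), 37 between amygdala and cerebellum (80.2%), 36 between cortex and cerebellum (79.9%), 36 between hypothalamus and hippocampus (73.0%), 35 between hypothalamus and cortex (77.7%), 35 between hippocampus and cerebellum (78.7%), 34 between hypothalamus and amygdala (71.0%), 33 between hippocampus and cortex (67.0%), 32 between amygdala and cortex (62.5%) and 32 between amygdala and hippocampus (58.7%). Of the 39 genes that differed between hypothalamus and cerebellum, 27 were higher in the hypothalamus. The amygdala was above the hippocampus for 22 of the 32 genes that differed and below the cortex for 18 of 32.

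The next comparison asked which of these genes distinguish 1 region from the other 4. A gene was called for a region when it was higher there than in each other region by a fitted log2 difference over 1, each with an adjusted p under 0.05. The p-values came from the quasi-likelihood test of edgeR and were adjusted over 13016 genes by the method of Benjamini and Hochberg. By this rule 16 of the 40 tested genes were called for a region, against 8.07% of all genes tested. Of these, 8 were called for the hypothalamus (2.39% of all genes tested), 6 for the cerebellum (4.14%), 2 for the hippocampus (0.768%) and none for the cortex (0.553%) or the amygdala (0.215%). These shares are no test, since the genes were chosen as known markers of regional or cell type identity. Six6, Hmx3 and Isl1 also passed the filter only through the hypothalamus. By class, 2 of 2 tested sine oculis class genes, 5 of 12 NK-like genes, 3 of 6 LIM genes, 2 of 3 paired-like genes, 2 of 5 zinc finger genes, 1 of 5 TALE genes, 1 of 4 POU genes and 0 of 3 CUT genes were called. The median log2 difference between the highest region and the mean of the other 4 was 6.85 for the sine oculis class genes, 5.74 for the paired-like genes, 3.97 for the NK-like genes and 3.83 for the LIM genes. It was 1.39 for the zinc finger genes, 1.17 for the CUT genes, 0.93 for the POU genes and 0.73 for the TALE genes. The same 16 genes were called with the animal as a block, with limma-voom, with RLE scaling, in the virgin libraries alone and without hippocampus library 413. At a log2 difference over 2, 10 were called (2.67% of all genes tested), and Lhx9, Pou3f1, Six3, Uncx, Zfhx3 and Zfhx4 dropped out.

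Six3 and Six6 encode sine oculis class factors that pattern the anterior forebrain, the eye and the pituitary, and both were called for the hypothalamus. Their promoters are shown because these genes had the largest median difference of any class, as the 250 bases upstream of the RefSeq start site in GRCm38.p6, 5′ to 3′ on the gene's strand. Six6 is at chr12:72939632-72939881 on the plus strand and Six3 at chr17:85620584-85620833 on the plus strand. Capitals mark TGACAG, the core site of TALE factors, and the CCAAT box, both searched on either strand. The CCAAT box was added to the motifs after the sequences were seen. In Six3, the last bases shown overlap an exon of the antisense gene Gm28528. The Six3 window also lies within the span of Six3 in the gene annotation (chr17:85613608-85629302), which starts farther upstream than RefSeq.
Six6: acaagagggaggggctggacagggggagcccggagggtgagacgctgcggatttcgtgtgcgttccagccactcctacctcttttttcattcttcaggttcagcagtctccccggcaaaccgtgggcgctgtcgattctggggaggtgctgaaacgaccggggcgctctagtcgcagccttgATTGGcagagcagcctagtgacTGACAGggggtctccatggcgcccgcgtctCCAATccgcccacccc
Six3: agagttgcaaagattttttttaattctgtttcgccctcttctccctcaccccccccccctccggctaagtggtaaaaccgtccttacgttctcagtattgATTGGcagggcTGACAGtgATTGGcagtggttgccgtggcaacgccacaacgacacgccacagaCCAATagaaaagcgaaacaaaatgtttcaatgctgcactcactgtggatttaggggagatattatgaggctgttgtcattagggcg
Both sequences held the TALE core and at least 1 CCAAT box. The TALE core was present in 6 of the 35 promoters found for the 45 genes and in 16% of the 27025 promoters in the RefSeq table. The CCAAT box was present in 17 of the 35 and in 34.5% of all. The homeodomain core, TAATTA, was in neither sequence.

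Six6 was at 8.72, 13.2 and 18.1 CPM in the lowest, median and highest virgin hypothalamus library and at 7.10, 12.7 and 13.1 CPM in the primiparous libraries. Its highest library in the next region, the amygdala, was at 1.47 CPM, so the regions did not overlap. The log2 difference was 6.85 (SE 0.347, adjusted p = 1.69e-30). Six3 was at 33.9, 42.9 and 49.2 CPM in the virgin hypothalamus and at 42.7, 49.0 and 60.6 CPM in the primiparous hypothalamus. Its amygdala libraries reached 26.0 CPM, below the lowest hypothalamus library, with a log2 difference of 1.65 (SE 0.202, adjusted p = 3.45e-11). The amygdala mean was 13.2 ± 5.44 CPM for Six3. For Six6 it was 0.118 ± 0.380 CPM and rested on primiparous animal 427, which held 24 of the 28 amygdala reads. Without that library it was 0.0210 CPM, below the hippocampus mean of 0.0522 CPM, and 12 of 15 amygdala libraries had no Six6 read. Against the hippocampus the log2 difference of Six6 was 7.85 (SE 0.355, adjusted p = 9.08e-34). Amygdala Six3 varied between animals. The libraries of virgin animals 405 and 409 were at 24.7 and 26.0 CPM, and these 2 libraries also had the highest summed striatal marker levels, 717 and 799 CPM. Of 24 genes examined across the 15 amygdala libraries, 2 (Cux1 and Six3) followed the summed striatal markers past the threshold by Pearson's r and 0 by Spearman's rho. For Six3, r was 0.746 and rho 0.561, and r fell to 0.381 without the 2 libraries farthest from the median. The part of striatal tissue in the Six3 level was not tested.

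The other genes called for the hypothalamus were Nkx2-1, Hmx3, Otp, Isl1, Zfhx3 and Zfhx4. Nkx2-1, which specifies the ventral forebrain and the thyroid, was at 32.9, 40.7 and 50.0 CPM in the lowest, median and highest virgin library and at 38.6, 42.3 and 57.7 CPM in the primiparous libraries. No library of the amygdala exceeded 6.57 CPM, and the log2 difference was 3.81 (SE 0.171, adjusted p = 1.05e-31). Hmx3, known for its roles in the inner ear and the hypothalamus, was nearly absent elsewhere. It was at 4.63, 5.53 and 7.11 CPM in the virgin hypothalamus and at 5.78, 8.22 and 9.0 CPM in the primiparous hypothalamus. In the cortex, 16 of 16 libraries had no Hmx3 read, and the hippocampus, amygdala and cerebellum held 14, 7 and 2 reads in all their libraries together. Against the hippocampus, its next region, the fitted log2 difference was 7.04 (SE 0.325, adjusted p = 4.35e-28), where 5 of the 14 hippocampus reads came from primiparous animal 427 and the hippocampus mean was 0.0362 CPM with and 0.0186 CPM without that library.

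Otp is required for neuroendocrine neurons that make oxytocin, vasopressin, corticotropin-releasing hormone and thyrotropin-releasing hormone. Otp was at 18.6, 21.4 and 25.3 CPM in the virgin hypothalamus and at 16.9, 28.0 and 41.1 CPM in the primiparous hypothalamus, against at most 6.16 CPM in the amygdala (log2 difference 3.40, SE 0.198, adjusted p = 1.23e-26). Isl1, a LIM factor of motor neurons and of arcuate neurons, was at 22.6, 23.9 and 29.2 CPM and at 23.0, 27.7 and 36.2 CPM in the same order of groups, against at most 4.23 CPM in the amygdala (log2 difference 4.15, SE 0.248, adjusted p = 1.53e-25). The zinc finger homeobox genes were higher in the hypothalamus without being confined to it. Zfhx3, which acts in circadian timing in the suprachiasmatic nucleus, had a mean of 66.9 ± 6.68 CPM in the hypothalamus and 19.1 ± 5.41 CPM in the amygdala (log2 difference 1.66, SE 0.0978, adjusted p = 1.80e-26). Its hypothalamus libraries ran from 58.1 to 78.4 CPM in virgin females and from 58.4 to 72.5 CPM in primiparous females, with a median of 68.3 CPM in each, and the highest amygdala library was at 28.5 CPM. Zfhx4 was at 57.6, 68.2 and 81.4 CPM in the virgin and at 45.7, 61.2 and 74.9 CPM in the primiparous hypothalamus, and the next region, the hippocampus, reached 20.1 CPM (log2 difference 1.90, SE 0.0842, adjusted p = 2.16e-34).

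Nkx2-2, a ventral neural tube gene that also acts in oligodendrocyte development, was highest in the hypothalamus at 9.20 ± 1.65 CPM, but the cerebellum followed at 5.85 ± 1.63 CPM and the log2 difference of 0.66 (SE 0.118, adjusted p = 6.77e-07) was under the required 1. Among genes below the filter, Hmx2, the neighbour of Hmx3, was at 2.50 ± 0.794 CPM in the hypothalamus and at 0 in 15 of 15 cerebellum libraries. Rax, which marks tanycytes that line the third ventricle, was at 2.95 ± 1.29 CPM there. Pou3f4 was at 3.77 ± 0.936 CPM in the hypothalamus, with means of 1.61 to 2.50 CPM in the other regions. With a filter that adapts to library size (filterByExpr), Hmx2 and Rax were called for the hypothalamus, En1 for the cerebellum and Lhx8 for the amygdala, and 20 of 45 genes were called in all, beside 10.5% of all genes that passed that filter.

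**Figure D2:**
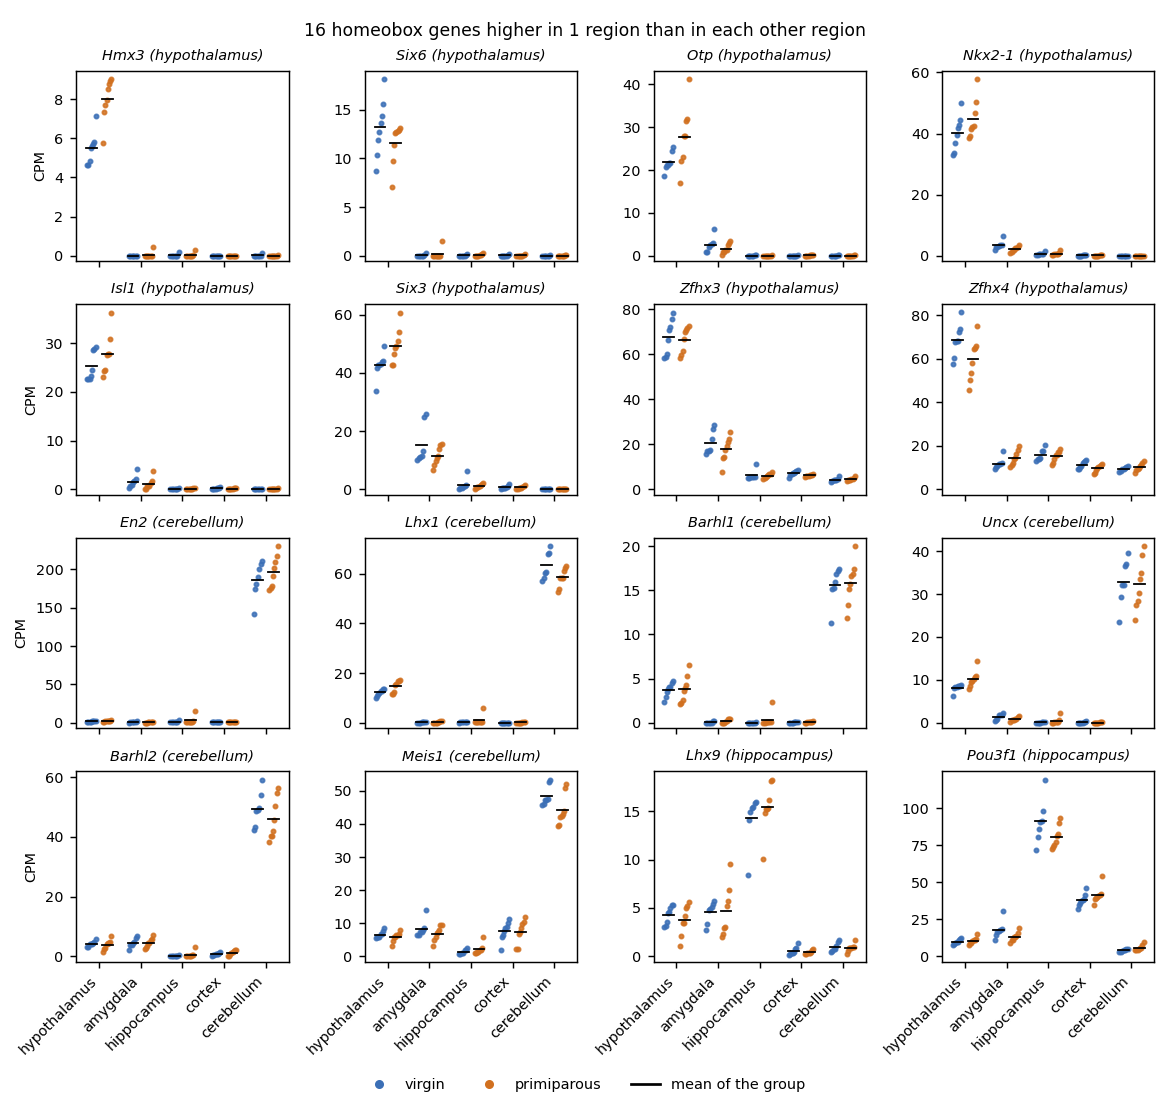
Levels of the 16 genes called for a region, in CPM on each vertical axis from 0, by region, with a point for each virgin or primiparous library and a line at each group mean. Six6 and Hmx3 are close to 0 outside the hypothalamus, while Zfhx3, Zfhx4 and Pou3f1 are also expressed in the other regions.

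The 6 genes called for the cerebellum were En2, Barhl2, Lhx1, Meis1, Uncx and Barhl1. En2, an engrailed gene of the midbrain and hindbrain, was at 192 ± 22.2 CPM in the cerebellum and at 2.23 ± 3.83 CPM in the hippocampus, its next region (log2 difference 6.49, SE 0.248, adjusted p = 5.72e-36). The hippocampus came next because of the library of animal 413: without it the hippocampus mean was 1.25 CPM, below the hypothalamus mean of 1.83 CPM, and the log2 difference between cerebellum and hippocampus was 7.14 (SE 0.155, adjusted p = 4.89e-53). Its relative En1 was below the filter and was also highest in the cerebellum, at 5.32 ± 1.71 CPM, followed by the hypothalamus at 1.79 CPM. Barhl1 acts in cerebellar granule cells and was at 15.7 ± 2.24 CPM there, against 3.77 ± 1.18 CPM in the hypothalamus (log2 difference 2.04, SE 0.218, adjusted p = 8.99e-14). Barhl2 was at 47.6 ± 6.49 CPM in the cerebellum against 4.54 ± 1.53 CPM in the amygdala (log2 difference 3.26, SE 0.236, adjusted p = 6.83e-21). Scaled by transcript length, En2 in the cerebellum had the highest level of any of the genes in its top region, at 54.3 CPM per kb, followed by Pou6f1 in the cortex (24.9), Pou3f1 in the hippocampus (22.2), Lhx2 in the amygdala (20.9) and Barhl2 in the cerebellum (20.6), each in CPM per kb.

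Lhx1 and Lhx5 encode closely related LIM factors that act in Purkinje cell development. Lhx1 was at 57.0, 60.9 and 70.9 CPM in the lowest, median and highest virgin cerebellum library and at 52.5, 58.4 and 63.1 CPM in the primiparous libraries. The hypothalamus came next with at most 17 CPM (log2 difference 2.19, SE 0.185, adjusted p = 1.08e-17). Lhx5 was also highest in the cerebellum, at 27.4 ± 2.90 CPM, but the hypothalamus reached 17.1 ± 3.79 CPM and the log2 difference was 0.70 (SE 0.154, adjusted p = 3.81e-05). Meis1, a TALE factor that is expressed in granule cells, was at 45.6, 47.1 and 53.3 CPM in the virgin and at 39.3, 42.8 and 52.0 CPM in the primiparous cerebellum, against at most 14 CPM in the amygdala (log2 difference 2.49, SE 0.181, adjusted p = 4.79e-21). Uncx, a paired-like gene known for patterning the axial skeleton, was at 23.5, 32.1 and 39.6 CPM in the virgin and at 24.0, 31.8 and 41.1 CPM in the primiparous cerebellum. The hypothalamus again came next, with at most 14.4 CPM (log2 difference 1.84, SE 0.185, adjusted p = 1.20e-14).

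The upstream sequences of Lhx1 and Uncx are shown for comparison with those of the hypothalamic sine oculis class genes, in the same form. Lhx1 is at chr11:84525535-84525784 on the minus strand and Uncx at chr5:139543648-139543897 on the plus strand. Capitals mark the TALE core, the CCAAT box and the homeodomain core on either strand, and part of the Lhx1 sequence overlaps an exon of the divergent noncoding gene Lhx1os. The Uncx window lies within the span of Uncx in the gene annotation (chr5:139543494-139548179).
Lhx1: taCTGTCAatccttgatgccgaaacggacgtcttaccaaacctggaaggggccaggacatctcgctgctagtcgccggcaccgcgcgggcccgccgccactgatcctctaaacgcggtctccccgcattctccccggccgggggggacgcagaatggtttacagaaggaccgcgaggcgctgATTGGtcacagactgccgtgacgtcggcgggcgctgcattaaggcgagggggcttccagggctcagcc
Uncx: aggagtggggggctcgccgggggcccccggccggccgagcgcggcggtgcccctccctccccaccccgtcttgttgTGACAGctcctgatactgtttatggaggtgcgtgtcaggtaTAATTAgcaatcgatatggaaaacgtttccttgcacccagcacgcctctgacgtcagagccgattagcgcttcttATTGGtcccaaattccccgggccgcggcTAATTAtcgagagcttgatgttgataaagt
Uncx was the only one of the 35 promoters with the homeodomain core, which occurred at 2 places in it, and 4.9% of all promoters held this motif. The POU octamer ATGCAAAT was in 0 of the 35 and in 1.61% of all. The TALE core and the CCAAT box stood upstream of genes called for the hypothalamus (2 and 4 of 7 promoters found) and for the cerebellum (2 and 3 of 5) alike. These matches describe letters in a window and say nothing of binding.

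Several of the genes were almost silent in the cerebellum. The means there were 0.185 CPM for Lhx2, 0.0859 CPM for Dlx1, 0.0604 CPM for Dlx2, 0.0204 CPM for Dlx5, 0.0165 CPM for Dlx6 and 0.0177 CPM for Emx2. The cerebellum was the lowest region by the fit for 22 of the 40 tested genes, the hippocampus for 8, the cortex for 6 and the hypothalamus and the amygdala for 2 each.

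The hippocampus was called for Pou3f1 and Lhx9. Pou3f1, a POU factor of hippocampal pyramidal cells and of myelinating Schwann cells, was at 71.7, 90.8 and 119 CPM in the virgin and at 72.5, 79.2 and 93.6 CPM in the primiparous hippocampus. The cortex came next with at most 54.5 CPM, and the log2 difference of 1.14 (SE 0.0911, adjusted p = 7.29e-19) was close to the required 1. Pou3f1 was not called in the primiparous libraries alone. Lhx9, a relative of Lhx2, was at 14.9 ± 2.57 CPM in the hippocampus and 4.63 ± 1.98 CPM in the amygdala (log2 difference 1.68, SE 0.177, adjusted p = 1.46e-13). Emx2, which patterns the cortical sheet and the hippocampus, was highest in the hippocampus at 18.0 ± 1.58 CPM, with 11.9 ± 2.60 CPM in the amygdala (log2 difference 0.61, SE 0.0994, adjusted p = 1.40e-07). Pou3f3, also known as Brn1, was at 106 ± 8.5 CPM in the hippocampus and at 95.3 ± 8.57 CPM in the cortex (log2 difference 0.19, SE 0.0542, adjusted p = 0.00190). Tshz2 was at 83.9 ± 12.3 CPM in the hippocampus and at 80.3 ± 6.25 CPM in the hypothalamus (log2 difference 0.20, SE 0.0604, adjusted p = 0.00215), and at 7.78 CPM in the cerebellum.

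The hippocampus library of primiparous animal 413 carried genes of the cerebellar set. En2 was at 15.9 CPM in this library and at 0.705 to 3.12 CPM in the other 14 hippocampus libraries. Lhx1 was at 6.00 CPM against at most 0.501 CPM, Barhl2 at 3.12 against at most 0.397 CPM, and En1 at 2.68 against at most 0.173 CPM. Meis1, Lhx5, Barhl1 and Uncx were also highest in this library, at 5.95, 2.39, 2.34 and 2.29 CPM, against at most 2.48, 0.625, 0.125 and 0.650 CPM in the others. The part of cerebellar tissue in these values was not tested. The list of 16 called genes did not change without this library.

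The remaining genes were each highest in a region by less than the required difference. Emx1, a marker of excitatory neuron lineages of the cortex, was at 24.4 ± 4.13 CPM in the cortex and 13.2 ± 2.14 CPM in the amygdala (log2 difference 0.85, SE 0.122, adjusted p = 6.58e-09), and at 0.192 CPM in the hypothalamus and 0.0918 CPM in the cerebellum. Otx1, which acts in deep-layer neurons, was at 6.23 ± 0.869 CPM in the cortex and 3.81 ± 0.823 CPM in the amygdala (log2 difference 0.68, SE 0.128, adjusted p = 4.18e-06). Cux2, an upper-layer CUT gene, was at 71.3, 92.2 and 103 CPM in the virgin and at 47.0, 96.8 and 131 CPM in the primiparous cortex. Its amygdala libraries reached 87.4 CPM and overlapped with those of the cortex (log2 difference 0.52, SE 0.0794, adjusted p = 2.98e-08). Its relative Cux1 was instead highest in the cerebellum, at 102 ± 5.79 CPM against 79.4 ± 5.29 CPM in the cortex (log2 difference 0.25, SE 0.0397, adjusted p = 2.99e-08).

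Satb1, a chromatin organizer with CUT repeats, was at 130, 150 and 166 CPM in the virgin and at 106, 135 and 187 CPM in the primiparous cortex, with at most 107 CPM in the hippocampus (log2 difference 0.58, SE 0.0557, adjusted p = 1.96e-15). Pou6f1 was at 155, 171 and 186 CPM in the virgin and at 131, 177 and 199 CPM in the primiparous cortex, with at most 142 CPM in the hippocampus (log2 difference 0.49, SE 0.0394, adjusted p = 5.58e-19). Tshz3 was at 35.3 ± 6.84 CPM in the cortex and 24.7 ± 4.66 CPM in the amygdala (log2 difference 0.49, SE 0.0922, adjusted p = 3.30e-06). Lhx2, a selector gene of the cortex, was at 91.8 ± 12.5 CPM in the amygdala and 83.1 ± 3.87 CPM in the hippocampus, which did not differ past the threshold (log2 difference 0.14, SE 0.0641, adjusted p = 0.0536). Lhx6, needed by interneurons of the medial ganglionic eminence, was at 28.8 ± 4.87 CPM in the amygdala and 22.3 ± 2.67 CPM in the cortex (log2 difference 0.40, SE 0.100, adjusted p = 0.000414). Lhx8, a gene of basal forebrain cholinergic neurons, was highest in the amygdala at 1.42 ± 1.64 CPM, and the same 2 amygdala libraries with high Six3 had 6.00 and 4.13 CPM.

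Other genes had regions at the top that the test did not separate or separated narrowly. Pbx2, a TALE partner protein, was at 50.8 ± 5.60 CPM in the amygdala, 50.0 ± 6.44 CPM in the hypothalamus and 48.1 ± 3.45 CPM in the hippocampus. In the fit, which scales libraries by TMM, the amygdala and the hippocampus (adjusted p = 0.164) and the hypothalamus and the hippocampus (adjusted p = 0.0706) were not separated. The hypothalamus and the amygdala were, with a log2 difference of hypothalamus minus amygdala of -0.16 (SE 0.0461, adjusted p = 0.00112). Meis3 was at 31.0 ± 4.32 CPM in the cortex and 30.3 ± 3.66 CPM in the hypothalamus (log2 difference 0.14, SE 0.0662, adjusted p = 0.0448). Pou3f2, also known as Brn2, was at 39.5 ± 5.08 CPM in the hypothalamus and 37.5 ± 4.94 CPM in the cortex (adjusted p = 0.517).

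The Dlx genes drive the GABA neuron programme of the ventral forebrain, and Meis2, Pbx3 and Tshz1 are expressed with them in striatal and olfactory bulb lineages. By the fit, all 7 were highest in the cortex, but the margin over the next region was small and the cortex libraries were uneven. Dlx1 was at 30.6 ± 11 CPM in the cortex and 24.8 ± 3.63 CPM in the hypothalamus (log2 difference 0.41, SE 0.117, adjusted p = 0.00114). Dlx2 was at 12.6 ± 4.90 and 12.6 ± 2.60 CPM (adjusted p = 0.483), Dlx5 at 8.21 ± 3.31 and 5.16 ± 0.990 CPM (adjusted p = 6.77e-06) and Dlx6 at 6.22 ± 2.73 and 6.61 ± 1.32 CPM (adjusted p = 0.792) in the cortex and the hypothalamus. Meis2 was at 113, 175 and 225 CPM in the virgin and at 93.9, 169 and 209 CPM in the primiparous cortex, with up to 144 CPM in the amygdala (log2 difference 0.48, SE 0.0923, adjusted p = 7.10e-06). Pbx3 was at 27.6 ± 11.5 CPM in the cortex and 25.0 ± 3.07 CPM in the cerebellum (adjusted p = 0.112), and Tshz1 was at 90.9 ± 27.2 CPM in the cortex and 61.0 ± 9.33 CPM in the amygdala (log2 difference 0.55, SE 0.0909, adjusted p = 3.08e-07).

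Within the cortex, these genes varied with the summed level of olfactory bulb markers, a relation that was examined after the data had been seen. Over 16 libraries, Pearson's r and Spearman's rho were 0.961 and 0.903 for Dlx1, 0.959 and 0.900 for Pbx3, 0.946 and 0.879 for Tshz1, 0.936 and 0.850 for Meis2, 0.935 and 0.915 for Dlx2, 0.932 and 0.879 for Meis1, 0.889 and 0.921 for Dlx5 and 0.854 and 0.835 for Dlx6. The permutation p-values within state, adjusted over 50 relations, were 0.000167 for Dlx1, Dlx2 and Dlx5, 0.0002 for Tshz1 and Meis1, 0.00025 for Pbx3, 0.000429 for Meis2 and 0.0005 for Dlx6, where the smallest raw p that the permutations can give was 1e-05. Without the 2 libraries farthest from the median, r stayed between 0.725 and 0.940 for these 8 genes. Pbx2 followed more loosely, with r of 0.654 and rho of 0.653 (permutation adjusted p = 0.0292), and r was 0.421 without those 2 libraries. Lhx6 ran the other way, with r of -0.793 and rho of -0.832 (permutation adjusted p = 0.00233), and Emx1 had an r of 0.0331. These 10 of the 26 genes examined in the cortex passed the threshold by both measures.

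**Figure D3:**
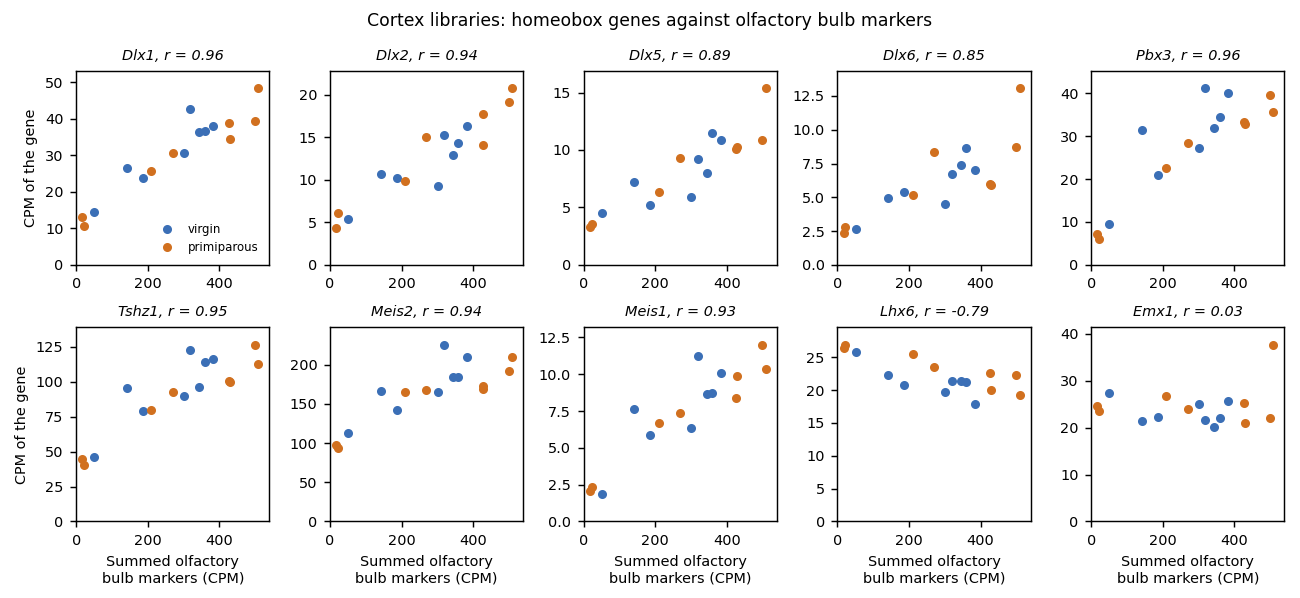
Level of 10 genes in CPM (vertical axes) against the summed CPM of 10 olfactory bulb marker genes (horizontal axes) in the 16 cortex libraries, with virgin and primiparous libraries marked. Dlx1, Dlx2, Dlx5, Dlx6, Pbx3, Tshz1, Meis2 and Meis1 rise with the markers, and 3 libraries lie at the low end of every panel.

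The cortex libraries of primiparous animals 413 and 425 and of virgin animal 405 had under 100 CPM of summed olfactory bulb markers. In these 3 libraries Dlx1 had a mean of 12.7 CPM against 34.8 CPM in the other 13, Pbx3 7.57 against 32.3 CPM, Tshz1 43.7 against 102 CPM, Meis2 101 against 181 CPM and Meis1 2.09 against 8.70 CPM. Emx1 was at 25.2 and 24.2 CPM in the same sets of libraries. With these 3 libraries alone standing for the cortex, the log2 difference between cortex and hypothalamus became -0.76 for Dlx1 (adjusted p = 0.000148), -1.08 for Dlx2 (adjusted p = 0.00195) and -1.16 for Dlx6 (adjusted p = 0.000144). Pbx3 became lower in the cortex than in the cerebellum by -1.49 (adjusted p = 1.54e-08), and Tshz1 lower than in the amygdala by -0.44 (adjusted p = 0.000690). Dlx5 at -0.22 (adjusted p = 0.526) and Meis2 at -0.15 (adjusted p = 0.486) did not differ past the threshold from the hypothalamus and the amygdala. Of the calls between highest and next region, those also lost were Lhx6 between cortex and amygdala (-0.12, SE 0.201, adjusted p = 0.698), Pou3f3 between cortex and hippocampus (-0.05, SE 0.102, adjusted p = 0.720) and Meis3 between cortex and hypothalamus (0.07, SE 0.124, adjusted p = 0.663), each as cortex minus the other region. Other pairs changed too, among them cortex minus hypothalamus for Meis1, from 0.39 (adjusted p = 0.0409) to -1.44 (adjusted p = 0.000982). Cortex minus amygdala went from -0.03 to -1.87 for Meis1 (adjusted p = 7.81e-05) and from 0.37 to -1.38 for Pbx3 (adjusted p = 4.34e-07). Lhx2 lost its call against amygdala, from -0.33 (SE 0.0632) to -0.18 (SE 0.122, adjusted p = 0.264). It also lost that against hippocampus, from -0.19 (SE 0.0630) to -0.04 (SE 0.120, adjusted p = 0.809). Zfhx4 lost its call against amygdala with little change in size, from -0.35 (SE 0.0877) to -0.32 (SE 0.178, adjusted p = 0.173). With only 3 cortex libraries the SE was larger, so a lost call need not mean a changed difference. The same 16 genes were called for a region in this fit. The part of olfactory bulb tissue in the cortex level of these genes was not tested.

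Dlx1 and Dlx2 lie on chromosome 2 at chr2:71528113-71533981 on the plus strand and chr2:71543408-71546754 on the minus strand, 9427 bases apart. Dlx5 and Dlx6 form the other convergent pair, at chr6:6877805-6882085 on the minus strand and chr6:6863334-6868568 on the plus strand, with 9237 bases between them. Hmx2 and Hmx3 are 3848 bases apart on chromosome 7. Of 9 relations between neighbours across animals, 2 passed the threshold. In the cortex, Dlx1 and Dlx2 had an r of 0.946 and a rho of 0.906 (n = 16, permutation adjusted p = 9e-05, r without 2 libraries 0.908), and Dlx5 and Dlx6 had an r of 0.925 and a rho of 0.891 (0.856 without 2 libraries). These are the genes that varied with the olfactory bulb markers in the same libraries. The other 7 relations had r between -0.224 and 0.382 and did not pass, among them Hmx2 and Hmx3 in the hypothalamus (r = 0.00489, n = 16, permutation test), where r was 0.627 without 2 libraries.

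A further comparison asked whether the genes differed between virgin and primiparous females within a region. In the hypothalamus 4 of the 40 genes differed (10%), against 22.6% of all 13016 genes tested. Hmx3, Dlx6 and Lhx5 were higher in primiparous females and Pou3f2 was lower, where 10.8% of all genes were higher and 11.8% lower. The median log2 fold change of primiparous over virgin was 0.07 over the 40 genes and 0.01 over all genes, and 28 of the 40 had a positive and 12 a negative value. At an unadjusted p under 0.05 there were 14 of 40, against 37.1% of all genes.

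Hmx3 (chr7:131542867-131544925, plus strand) was at 4.63, 5.53 and 7.11 CPM in the lowest, median and highest virgin library and at 5.78, 8.22 and 9.0 CPM in the primiparous libraries. Of the 8 primiparous libraries, 7 were above every virgin library. The group means were 5.48 ± 0.817 and 7.99 ± 1.08 CPM (SD, n = 8), and the log2 fold change was 0.51 (SE 0.128, edgeR adjusted p = 0.00779). Dlx6 was at 4.49, 5.69 and 6.62 CPM in the virgin and at 6.80, 7.89 and 8.54 CPM in the primiparous libraries, and the groups did not overlap. Its means were 5.56 ± 0.804 and 7.67 ± 0.747 CPM (SD, n = 8), with a log2 fold change of 0.44 (SE 0.122, edgeR adjusted p = 0.0138). Lhx5 (chr5:120431699-120441223, plus strand), which acts in development of the mammillary region as well as of Purkinje cells, was at 12.4, 14.8 and 17 CPM in the virgin and at 13.7, 19.3 and 25.3 CPM in the primiparous libraries. Of the primiparous libraries, 6 of 8 were above every virgin library and their spread was wider (14.8 ± 1.32 against 19.5 ± 4.05 CPM, SD, n = 8, log2 fold change 0.38, SE 0.110, edgeR adjusted p = 0.0176). Pou3f2 (chr4:22482780-22488366, minus strand), needed for oxytocin, vasopressin and corticotropin-releasing hormone neurons, was at 31.6, 43.6 and 48.0 CPM in the virgin and at 32.7, 36.5 and 41.8 CPM in the primiparous libraries. The groups overlapped, and 8 of 8 primiparous libraries were below the virgin mean (42.3 ± 5.09 against 36.7 ± 3.38 CPM, SD, n = 8, log2 fold change -0.22, SE 0.0787, edgeR adjusted p = 0.0425). This call was lost with limma-voom (-0.20, adjusted p = 0.0940), while the other 3 genes were called by it. In the fit of 10 groups that share 1 estimate of the spread, none of these 4 genes passed, with adjusted p of 0.152 for Hmx3, 0.121 for Dlx6, 0.215 for Lhx5 and 0.0694 for Pou3f2, while Emx1, Lhx2 and Pbx2 did (3 of 40, beside 16.8% of all genes). Emx1 had few reads in the hypothalamus, and its log2 fold change in the fit of that region alone was 1.70 (SE 0.917). Only 1 of 8 primiparous libraries was above every virgin library for Emx1.

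**Figure D4:**
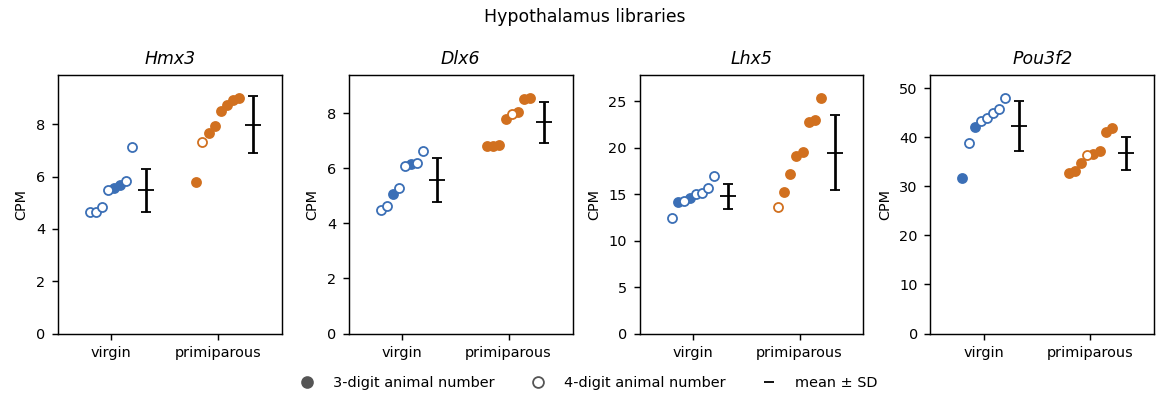
Levels of Hmx3, Dlx6, Lhx5 and Pou3f2 in CPM (vertical axes) in the 8 virgin and 8 primiparous hypothalamus libraries, with the mean and SD of each group, filled points for animals with a 3-digit number and open points for those with a 4-digit number. The 8 primiparous libraries of Dlx6 lie above the 8 virgin libraries, and those of Pou3f2 overlap with the virgin libraries.

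The animal numbers in the labels have either 3 or 4 digits, and 2 of 8 virgin and 7 of 8 primiparous animals had 3 digits. The labels do not say what the number series marks. With the series as a covariate, edgeR called 0 of the 40 genes and 3 of all genes, with 1907 of all genes at an unadjusted p under 0.05, and the log2 fold changes were 0.47 for Hmx3 (adjusted p = 0.211), 0.46 for Dlx6 (adjusted p = 0.200), 0.28 for Lhx5 (adjusted p = 0.375) and -0.11 for Pou3f2 (adjusted p = 0.606). With an offset for gene length and GC content in each library, 1 of the 40 genes and 2.96% of all genes were called, and the 1 was Dlx6 (log2 fold change 0.45, adjusted p = 0.0467), while Hmx3, Lhx5 and Pou3f2 had values of 0.30, 0.21 and -0.08 (adjusted p of 0.213, 0.347 and 0.554). Summed thalamic markers were lower in primiparous than in virgin hypothalamus libraries, at 620 to 772 CPM (median 704) against 756 to 1039 CPM (median 784). Slc17a6, a glutamate transporter gene, made up much of that sum, with means of 391 CPM in virgin and 305 CPM in primiparous libraries. It fell by 0.38 on the log2 scale (edgeR adjusted p = 0.00098). Of the 10 thalamic markers 2 were lower, Slc17a6 and Ntng1, and the median log2 fold change was -0.18. Their sum was higher in the cerebellum (median 1305 CPM) than in the hypothalamus (median 759 CPM), so it does not single out thalamus. Summed GABA neuron markers ranged from 1459 to 1621 CPM in virgin and from 1407 to 1659 CPM in primiparous libraries. The median log2 fold change of these 10 markers was 0.02, with 3 higher and 1 lower in primiparous females, and Npy rose by 0.53 (adjusted p = 0.0168) and Sst by 0.44 (adjusted p = 0.0014) on the log2 scale. The median summed level went from 175 CPM in virgin to 206 CPM in primiparous libraries for olfactory bulb markers (median log2 fold change 0.40, 1 of 9 tested genes higher), from 331 to 453 CPM for pituitary markers (0.33, 1 of 4 higher) and from 589 to 632 CPM for forebrain excitatory neuron markers (0.28, 0 of 10). Of 10 oligodendrocyte markers 1 was higher and 3 were lower (median -0.04), and of 10 astrocyte markers 2 were lower (median -0.04), Slc1a3 with a value of -0.19 and Slc1a2 of -0.16. Of 7 tested choroid plexus markers 1 was higher (Ttr, 1.52) and 1 lower (Prlr, -0.27), with a median of -0.27. Of 10 cerebellar markers 1 was higher (Pcp2, 1.90) and 1 lower (Calb1, -0.29), with a median of 0.15. The ranges of the sums of these lists overlapped between states. The part of these differences in the 4 results was not tested.

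Of the other genes called for the hypothalamus, none differed between states past the threshold by edgeR. Nkx2-1 had a log2 fold change of 0.14 (adjusted p = 0.265), Isl1 of 0.11 (adjusted p = 0.402) and Six6 of -0.22 (adjusted p = 0.253). Otp at 0.32 (adjusted p = 0.0573), Six3 at 0.19 (adjusted p = 0.0684) and Zfhx4 at -0.23 (adjusted p = 0.0608) were near the threshold. Otp was called by DESeq2 (adjusted p = 0.0439), which called 6 of 40 genes, beside 25.5% of all genes. Six3 was called on log2(CPM + 1) and log2(CPM + 4) values (adjusted p = 0.0479 and 0.0488). These each gave 5 of 40, beside 23.3% and 23.5% of all genes. Also near the threshold were the partner gene Pbx2 at 0.19 (adjusted p = 0.0569), Lhx2 at 0.32 (adjusted p = 0.0620) and Uncx at 0.30 (adjusted p = 0.0685). Pbx2 was called by DESeq2, with upper quartile scaling (5 of 40 genes, beside 23.2% of all genes), on both kinds of log2 values and in the fit of 10 groups. Lhx1, the relative of Lhx5, had a value of 0.24 (adjusted p = 0.0894), and Dlx5, the neighbour of Dlx6, of 0.31 (adjusted p = 0.112). Leaving out 1 library at a time gave 3 to 10 called genes: 10 without primiparous animal 418, 8 without virgin animal 409 and 7 without primiparous animal 4493. The share of all genes called is not given for these fits, so the counts are not set against it. Hmx3, Dlx6 and Lhx5 were called in 16 of 16 of these fits, with adjusted p up to 0.0194, 0.0328 and 0.0423, and Pou3f2 in 4 of 16, with adjusted p from 0.00336 to 0.0939.

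**Figure D5:**
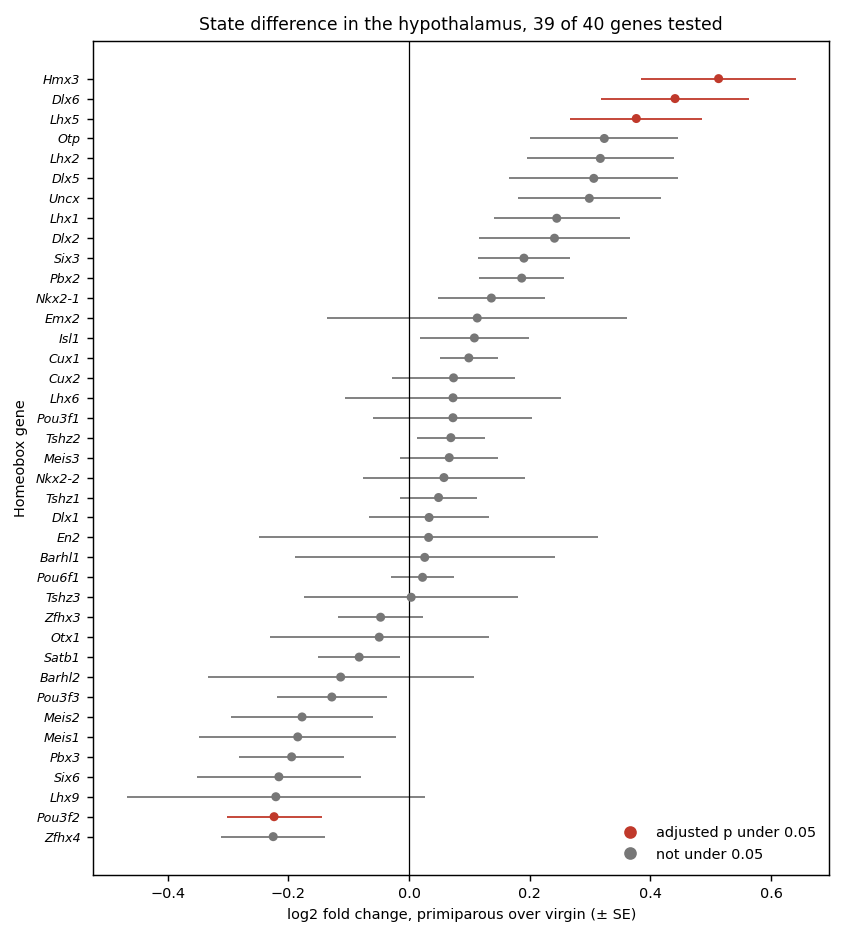
Log2 fold change of primiparous over virgin in the hypothalamus (horizontal axis) for 39 of the 40 tested genes, as points with bars of ± 1 SE and red where the adjusted p is under 0.05. Hmx3, Dlx6 and Lhx5 lie to the right and Pou3f2 to the left, while Emx1 is left out because its SE is over 0.5.

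In the other regions 0 of 40 genes differed between states by edgeR, and limma-voom and DESeq2 also called 0 of 40 in each. For edgeR this compares with 0.707% of all genes in the cerebellum (0.599% higher and 0.108% lower in primiparous females) and 0.0% in the amygdala, hippocampus and cortex. DESeq2 called 3.67% of all genes in the cerebellum, 0.415% in the amygdala, 0.0922% in the hippocampus and 0 in the cortex. At an unadjusted p under 0.05 there were 3 genes in the amygdala (11.9% of all genes), 6 in the cerebellum (19.5%), 3 in the hippocampus (7.38%) and 1 in the cortex (9.81%). The lowest adjusted p in the cerebellum belonged to POU genes, Pou3f3 with a log2 fold change of 0.21 (adjusted p = 0.0921) and Pou3f1 with 0.58 (adjusted p = 0.0977). Of the genes below the filter, the 13 exact two-sided permutation tests gave no adjusted p under 0.318. Lhx8 in the hypothalamus, at 0.365 CPM in virgin and 0.681 CPM in primiparous females, had an unadjusted exact p of 0.049, and Pou3f4 in the cerebellum, at 1.93 and 1.32 CPM, of 0.0416. Rax was at 2.47 and 3.42 CPM and Hmx2 at 2.36 and 2.65 CPM in the virgin and primiparous hypothalamus.

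Whether a state difference in the hypothalamus differed from that in another region was tested as an interaction. Against the amygdala, 4 of 40 genes passed (18.2% of all genes). Nkx2-1 had means of 3.45 ± 1.48 (n = 7) and 2.13 ± 0.869 CPM (n = 8) in the virgin and primiparous amygdala, and 40.3 ± 5.75 and 44.9 ± 6.48 CPM in the hypothalamus, and the log2 fold changes differed by 0.84 (SE 0.272, edgeR adjusted p = 0.0289). The highest amygdala library for Nkx2-1, virgin animal 409 at 6.57 CPM, was also the highest there for Otp, Isl1, Six3 and Zfhx3. The part of that library in this interaction was not tested. The interaction was 0.62 for Dlx2 (adjusted p = 0.0282), 0.26 for Cux1 (adjusted p = 0.0348) and -0.53 for Zfhx4 (adjusted p = 0.0286). Against the cerebellum, 5 of 40 passed (15.5% of all genes). Pbx3 went from 25.9 ± 2.64 to 22.9 ± 3.03 CPM in the hypothalamus and from 23.2 ± 1.24 to 26.6 ± 3.35 CPM in the cerebellum (interaction -0.42, SE 0.117, edgeR adjusted p = 0.0146). Pou3f2 was at 15.5 ± 1.99 and 17.3 ± 1.26 CPM in the cerebellum, opposite in sign to the hypothalamus (interaction -0.40, SE 0.114, edgeR adjusted p = 0.0165), and Pou3f3 had an interaction of -0.35 (adjusted p = 0.0443) and Lhx1 of 0.34 (adjusted p = 0.0346). For Dlx6 the value of 2.92 (adjusted p = 0.0352) rests on a cerebellum with at most 2 reads a library and gives no size. Against the hippocampus, 3 of 40 passed (17.2% of all genes). Dlx6 was at 2.34 ± 0.423 and 1.98 ± 0.396 CPM in the virgin and primiparous hippocampus (interaction 0.68, SE 0.194, edgeR adjusted p = 0.0163), and Lhx2 had an interaction of 0.32 (adjusted p = 0.0482). The value of -4.74 for Barhl1 (adjusted p = 0.0196) was lost without hippocampus library 413 (-2.32, adjusted p = 0.0872). Against the cortex, 0 of 40 genes and 0.0% of all genes passed by edgeR or limma-voom, with 3 of the 40 and 336 of all genes at an unadjusted p under 0.05 by edgeR.

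The regions came from the same animals, and with the animal as a replicate block fewer genes passed. Against the amygdala only Zfhx4 was called (14.0% of all genes), against the cerebellum only Pbx3 and Pou3f2 (11.5%), and against the hippocampus none of the 40 (11.1%).

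Of 71 other homeobox genes in the count table, 39 were tested and 16 were called for a region (41.0%, beside 8.07% of all genes). This share is no test either, since genes such as Nkx2-4 passed the filter only through the region they were called for. The 16 called genes are partly named here. They included Nkx2-4, Bsx, Nkx6-2, Lmx1a, Onecut3 and Vax1 for the hypothalamus, Pax6 for the cerebellum and Prox1 and Zeb2 for the hippocampus. Between states in the hypothalamus 2 of the 39 were higher in primiparous females, Nkx6-2 by 0.44 and Bsx by 0.43 on the log2 scale, and 3 were lower, where 10.8% of all genes were higher and 11.8% lower. Of 22 tested cofactors of homeodomain proteins, 2 were called for a region, Tle2 for the cerebellum and Lmo1 for the hippocampus (9.09%, beside 8.07% of all genes). Between states in the hypothalamus, 2 cofactors were higher and 2 lower, beside 10.8% and 11.8% of all genes, among them the corepressor Tle2 at a log2 fold change of 0.33 (adjusted p = 0.0426) and Dach1 at -0.42 (adjusted p = 0.00785).

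The libraries do not keep strand, so reads of a gene and of an overlapping antisense gene cannot be told apart. Exons of 13 of the 45 genes overlap exons of a gene on the opposite strand in GENCODE M21. The overlap takes 65.2% of the Tshz2 exons (Gm26883) and 27.4% of the Rax exons (Raxos1), which makes their levels uncertain. It takes 9.67% of the Nkx2-2 exons (Nkx2-2os), 8.79% of the Emx2 exons (Emx2os), 8.57% of the Pou3f1 exons (Gm2164) and 8.51% of the Meis1 exons (Gm16140). Smaller overlaps include 6.21% of the Dlx1 exons (Dlx1as), 4.79% of the Six6 exons (4930447C04Rik, a protein-coding gene) and 4.38% of the Dlx6 exons (Dlx6os2). They also include 1.95% and 3.08% of the Six3 exons (Six3os1 and Gm28528) and 2.57% of the Lhx5 exons (Gm27199). Six3os1 was at 17 and 18.6 CPM in the virgin and primiparous hypothalamus (log2 fold change 0.11, adjusted p = 0.393). The gene that overlaps Six6 was at 7.53 and 5.88 CPM (log2 fold change -0.37, adjusted p = 0.170), and Dlx6os2 at 0.122 and 0.168 CPM.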

How the data were processed

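RNA was measured in 77 libraries from 16 females (NEBNext Ultra kit, polyA-selected, not stranded, single-end reads). Per the labels, the authors processed reads with CASAVA and HISAT2 against mm10, counted them per gene with featureCounts and used edgeR and limma, with versions not given in the sources used here. The deposited count table holds raw read counts per gene. A deposited table of log2 values, from CPM scaled by the authors in edgeR, served only as an alternative, since its header names log2(CPM + 4) but its values lay a median of 3.94 from that quantity. The authors' columns of fold changes and p-values were not used. The 45 genes and the lists were chosen with earlier results of these data known.

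The 13016 genes that reached 5 CPM in 8 or more libraries, the same as in the log2 table, were tested with edgeR 4.0.16 (TMM, robust quasi-likelihood F-test, Benjamini-Hochberg over all 13016) in R 4.3.3: states within a region, regions in 1 fit of 10 groups, and interactions in fits of 2 regions. Limma 3.58.1, DESeq2 1.42.0, other scalings, filters, a length and GC offset (97.0% of tested genes had both values), a number series covariate, the animal as a replicate block and leaving out libraries were alternatives. The tests were tested on simulated data. Genes below the filter were compared by exact permutation, and correlations by 100000 permutations within state of log2(CPM + 4). The same animals gave all regions, which pairs the samples. The median correlation of deviations in the same animal was -0.0132 to 0.104, and that in different animals -0.0107 to 0.00673. All genes are named; lowest, median and highest values are given for genes that differed between states and for the 2 genes per class that differed most between regions. Promoters were taken from RefSeq (GRCm38.p6), where 35 of 45 genes were found. Replicates are separate animals, and depth limits precision through counting error, most for genes with few reads. The 3 other labelled virgin libraries, 1 each of the hippocampus, cerebellum and amygdala, were missing from the count table and were not analysed here. The study's methods state that 1 sample from each of these regions was removed as an outlier by principal component analysis. Python 3.11.15 was used for tables and figures.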

Additional observations from a re-analysis of the deposited data

Results flagged for a closer look

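In each group of 4 to 10 libraries, the gap of the highest or lowest library to its neighbour was compared with the group's range (Dixon's 95% limit). Of 98 groups tested, 14 had a library apart. The groups included the 6 genes called for the cerebellum in the hippocampus, where library 413 stood apart. The count is therefore not set against chance. Of the 14, 7 were in the hippocampus library of primiparous animal 413. En2 was at 15.9 CPM there, Lhx1 at 6.00, Meis1 at 5.95, Barhl2 at 3.12, Barhl1 at 2.34 and Uncx at 2.29 CPM, each above the other primiparous libraries, while Lhx9 was at 10.05 CPM, below the 14.9 to 18.2 CPM of the others. The summed cerebellar markers of this library were given above, and their part was not tested.

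In the virgin hippocampus, Lhx9 was at 8.41 CPM in animal 409 (others 14.1 to 15.9 CPM), En2 at 3.12 CPM in animal 4487 (others 0.795 to 1.11 CPM), whose summed choroid plexus markers were at 3670 CPM, and Barhl1 at 0.0465 CPM, or 1 read, in animal 4486 (others 0). In the cerebellum, Barhl1 was at 11.3 CPM in virgin animal 4488 (others 15.2 to 17.4 CPM). In the cortex of primiparous animal 427, Emx1 was at 37.6 CPM (others 20.9 to 26.7 CPM) and Pou6f1 at 131 CPM (others 170 to 199 CPM). Nkx2-2 was at 6.04 CPM in the hypothalamus of virgin animal 409 (others 8.46 to 10.5 CPM).

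The state difference in the hypothalamus differed from that in another region, by the interaction test, for 12 pairs of gene and region. Against the amygdala the log2 values were 0.84 for Nkx2-1, 0.62 for Dlx2, -0.53 for Zfhx4 and 0.26 for Cux1. Against the hippocampus they were -4.74 for Barhl1, 0.32 for Lhx2 and 0.68 for Dlx6. Against the cerebellum they were -0.35 for Pou3f3, 0.34 for Lhx1, -0.42 for Pbx3, -0.40 for Pou3f2 and 2.92 for Dlx6. Of these, Zfhx4 against the amygdala and Pbx3 and Pou3f2 against the cerebellum also passed with the replicate block.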

How the results depend on the processing

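The 4 state calls in the hypothalamus became 0 with the number series as a covariate, 1 with the length and GC offset and 3 to 10 when 1 library was left out, and the fit of 10 groups called 3 other genes (Emx1, Lhx2, Pbx2) and none of the 4. Pou3f2 was also lost with limma-voom (adjusted p = 0.0940), log2(CPM + 1) (0.0639) and log2(CPM + 4) (0.0644). The covariate series is close to the state itself (2 of 8 virgin and 7 of 8 primiparous animals). Elsewhere 1 gene (Barhl1) was called in the hippocampus in the fit of 10 groups, beside 0.0461% of all genes. Barhl1 was at 2.34 CPM in hippocampus library 413 and at most 0.125 CPM in the other hippocampus libraries. In the cerebellum 1 gene (Pou3f3) was called with the offset, beside 3.03% of all genes, or without primiparous animal 4493. Leaving out a library gave 0 to 1 called genes in the cerebellum, and the share of all genes is not given for these fits. The 16 region calls became 10 at a log2 difference over 2. Interactions with the replicate block numbered 1 (amygdala), 2 (cerebellum) and 0 (hippocampus), beside 14.0%, 11.5% and 11.1% of all genes. With the block and the offset they numbered 0, 1 and 0, beside 0.715%, 3.88% and 0.507% of all genes in the same order. With limma-voom they numbered 2, 3 and 1, beside 17.3%, 14.9% and 15.8% of all genes. Dlx6 in the cortex minus the hypothalamus turned to -0.0128 with the replicate block, -0.0726 with limma-voom and -0.0920 in primiparous females alone. With the 3 cortex libraries low in olfactory bulb markers, differences between the cortex and the next region turned to -0.76 for Dlx1, -1.08 for Dlx2, -0.22 for Dlx5, -1.16 for Dlx6, -0.15 for Meis2, -1.49 for Pbx3 and -0.44 for Tshz1. Among other pairs, Meis1 in the cortex minus the hypothalamus turned from 0.39 to -1.44. Hypothalamic Dlx1 and Dlx2 had an r of 0.000838 at log2(CPM + 1) and 0.0509 without 2 libraries, and Dlx5 and Dlx6 of 0.0245 without 2 libraries. The cause of these shifts was not tested. RLE scaling moved the median of all genes by at most 0.0153.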
